A study of Mus musculus with 24 samples.

Results

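Interferon-stimulated genes are the effector genes that a cell turns on when it receives, or prepares to make, an interferon signal. A list of 42 such genes was followed in LLC1 cells, a mouse lung carcinoma line, and 38 of them had at least 1 TPM in 3 or more of 24 libraries. TPM gives each transcript as its length-corrected share of all transcripts in a library. These 38 genes were tested among 12581 genes that met the same limit, out of 28328 genes in the table. The 4 others stayed below 1 TPM in every library. They are Oasl1, Cmpk2, Gbp3 and Gbp7, with highest values of 0.698, 0.0656, 0.934 and 0.806 TPM.

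The libraries were made from stranded poly(A) RNA and form 8 groups of 3. Chemotherapy cells (CP) received cisplatin, which crosslinks DNA, at 2.5 µM and pemetrexed, which blocks folate-dependent nucleotide synthesis, at 2.5 µM. Trametinib cells (T) received that inhibitor of the kinase MEK at 10 nM, and combination cells (TCP) received all 3 drugs. Untreated cells (NT) had 0.1% DMSO alone, and each group was taken at 6 h and at 24 h. Whether drug-treated cells also received DMSO is not stated in the sources used. The comparisons ask how chemotherapy, MEK inhibition and both together changed these genes, and whether the combination differed from its parts. All groups are cultures of 1 cell line. Nothing in the labels says that the 3 libraries of a group came from separate cultures, so the spread behind each p-value is that among these libraries and may be technical.

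Type I interferons bind a receptor made of IFNAR1 and IFNAR2, and the kinases JAK1 and TYK2 then phosphorylate STAT proteins. STAT2 and IRF9 are parts of the complex ISGF3, which binds interferon-stimulated response elements in promoters. Interferon gamma acts through the GAS element, and IRF1 binds sites much like the response element. The induced genes block viral RNA, modify proteins with ISG15 or ADP-ribose, restrict virus entry and release, and promote antigen presentation. Carcinoma cells can express many of them in culture with no interferon added.

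The promoters of 34 of the 42 genes were in the RefSeq table of GRCm38.p6, which holds 250 bases before and 50 bases after each gene's start. The core of the response element, searched as GAAANNGAAA on both strands, occurred in 15 of the 34 promoters (44.1%), against 1079 of 27025 promoters in the whole table (3.99%). The GAS core, searched as TTCNNNGAA, which reads the same on both strands, occurred in 11 of the 34 (32.4%), against 9.55% of the whole table. The 15 genes were Isg15, Trim21, Trim30a, Eif2ak2, Oas1a, Ifit3, Ifitm2, Ifitm3, Bst2, Shisa5, Gbp2, Gbp3, Gbp7, Igtp and Irgm1. A match is a run of letters and is not shown to be a bound site. Neighbouring matches can overlap.

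Promoters of 7 genes are printed from 250 bases before to 30 bases after the start, 5′ to 3′ along the gene, with matches to GAAANNGAAA in capitals. Those of Irgm1, Igtp, Eif2ak2 and Bst2 are from genes given library by library that hold a match, and Isg15 was added after its values were seen. Uba7 and Xaf1 are shown as genes given library by library whose window held no match. Isg15 lies at chr4:156200789-156201068 on the minus strand and has 3 overlapping matches, the first beginning 78 bases before the start. Irgm1 lies at chr11:48871391-48871670 on the minus strand, with 2 overlapping matches 30 and 24 bases before the start. Igtp lies at chr11:58199306-58199585 on the plus strand, with 1 match 34 bases before the start. Eif2ak2 lies at chr17:78882543-78882822 on the minus strand, with 1 match that begins at base 19 of the transcript. Bst2 lies at chr8:71537443-71537722 on the minus strand, with 2 overlapping matches 130 and 124 bases before the start. Uba7 lies at chr9:107975317-107975596 on the plus strand and Xaf1 at chr11:72301379-72301658 on the plus strand.
Isg15: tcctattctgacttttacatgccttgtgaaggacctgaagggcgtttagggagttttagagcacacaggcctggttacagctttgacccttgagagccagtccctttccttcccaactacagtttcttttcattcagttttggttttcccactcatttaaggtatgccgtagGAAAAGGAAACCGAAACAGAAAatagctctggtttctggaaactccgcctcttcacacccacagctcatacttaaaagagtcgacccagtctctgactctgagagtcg
Irgm1: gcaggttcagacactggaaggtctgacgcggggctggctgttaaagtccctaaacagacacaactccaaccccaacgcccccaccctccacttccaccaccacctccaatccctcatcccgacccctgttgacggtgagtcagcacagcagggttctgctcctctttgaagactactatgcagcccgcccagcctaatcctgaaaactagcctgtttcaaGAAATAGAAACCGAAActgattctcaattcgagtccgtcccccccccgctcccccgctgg
Igtp: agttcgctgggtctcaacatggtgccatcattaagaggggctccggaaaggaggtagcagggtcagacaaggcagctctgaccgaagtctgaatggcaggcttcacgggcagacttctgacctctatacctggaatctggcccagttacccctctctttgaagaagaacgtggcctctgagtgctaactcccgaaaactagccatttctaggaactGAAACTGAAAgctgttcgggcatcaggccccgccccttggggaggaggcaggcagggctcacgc
Eif2ak2: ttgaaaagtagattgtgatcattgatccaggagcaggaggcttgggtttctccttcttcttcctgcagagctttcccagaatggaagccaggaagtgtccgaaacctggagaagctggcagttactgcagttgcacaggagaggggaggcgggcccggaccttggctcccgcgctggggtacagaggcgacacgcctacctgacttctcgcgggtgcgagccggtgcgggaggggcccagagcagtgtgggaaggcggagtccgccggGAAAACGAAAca
Bst2: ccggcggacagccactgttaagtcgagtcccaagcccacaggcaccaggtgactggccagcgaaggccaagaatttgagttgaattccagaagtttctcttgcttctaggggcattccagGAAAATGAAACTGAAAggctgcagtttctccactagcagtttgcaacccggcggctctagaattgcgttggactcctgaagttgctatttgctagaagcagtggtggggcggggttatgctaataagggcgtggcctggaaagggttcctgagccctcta
Uba7: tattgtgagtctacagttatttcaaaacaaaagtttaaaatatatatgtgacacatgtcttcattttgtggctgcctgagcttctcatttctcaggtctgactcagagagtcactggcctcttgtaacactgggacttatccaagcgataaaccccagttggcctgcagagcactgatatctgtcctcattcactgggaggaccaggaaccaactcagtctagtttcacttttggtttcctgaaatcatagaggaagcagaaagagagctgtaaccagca
Xaf1: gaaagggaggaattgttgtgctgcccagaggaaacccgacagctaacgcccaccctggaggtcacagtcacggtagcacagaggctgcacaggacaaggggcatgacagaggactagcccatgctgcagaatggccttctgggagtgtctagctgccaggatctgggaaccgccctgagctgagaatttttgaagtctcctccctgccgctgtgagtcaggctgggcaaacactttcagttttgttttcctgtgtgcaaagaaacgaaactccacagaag

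The libraries resembled each other closely within groups (Pearson r of log2 values 0.982 to 0.994 across genes, which are not independent replicates), and 11242 to 11851 genes had at least 1 TPM in a library. TPM keeps no depth, so the reads behind each value are unknown. The carcinoma label was read against its markers: Krt8 had 69.9 to 209 TPM, Krt18 121 to 361 TPM and Vim 3296 to 4478 TPM, while Epcam and Cdh1 stayed under 1 TPM everywhere. Of 12 leukocyte markers, 11 stayed under 1 TPM in all 24 libraries, Adgre1 and Cd3e were at 0 in each, and Ptprc did not pass 0.0121 TPM. The exception was Cd68, a lysosomal protein gene, with 37 ± 3.48 TPM after chemotherapy, 4.68 ± 0.867 TPM after trametinib and 14 ± 0.866 TPM after the combination at 24 h, against 12.7 ± 2.24 TPM in untreated cells (SD, n = 3). The summed leukocyte list at 24 h therefore ran from 33.7 to 39.8 TPM, from 4.24 to 5.80 TPM and from 13.6 to 15.3 TPM in those treated groups, against 10.8 to 15.1 TPM in untreated cells. At 6 h its range over all groups was 4.52 to 7.34 TPM. Among 4 endothelial markers only Pecam1 passed 1 TPM, with 9.64 ± 2.91 TPM after chemotherapy, 3.87 ± 0.507 TPM after trametinib and 6.09 ± 0.829 TPM after the combination at 24 h, against 3.06 ± 0.524 TPM in untreated cells (SD, n = 3). The change was called with chemotherapy (1.36) and the combination (0.80) and not with trametinib (0.26). Its protein-coding transcripts made up 0.0428 TPM of the chemotherapy mean and 0.0949 TPM of the untreated mean. The part of these markers in the results below was not tested.

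In every treated group more interferon-stimulated genes were called higher than lower against untreated cells of the same time. The combination had the largest median change of the 3 treatments at both times, and chemotherapy at 6 h changed the fewest genes. The changes below are differences of log2(TPM + 1) tested with limma over all 24 libraries. A gene is called where the Benjamini-Hochberg adjusted p over 12581 genes is under 0.05. Many genes of the cell moved, so counts are read against the share of all genes called in the same direction. Usp18, Parp14, Oas1a, Ifit3, Rtp4 and Gbp2, 6 of the 38, had no untreated library at 1 TPM and entered the test through treated libraries alone. Such genes tend to be called higher, so counts and medians over the 38 describe the tested genes and are not support.

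At 6 h, chemotherapy raised 16 of 38 genes and lowered 0, also at an unadjusted p under 0.05, where 11.3% of all genes were called higher and 13.5% lower. Trametinib raised 29 and lowered 3, where 35.9% of all genes were called higher and 18.9% lower. The combination raised 32 and lowered 0, also at an unadjusted p under 0.05, where 38.6% of all genes were called higher and 19.8% lower. Median changes over the 38 genes were 0.19 with chemotherapy, 0.63 with trametinib and 0.87 with the combination, against 0.0095, 0.10 and 0.11 over all genes.

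At 24 h, chemotherapy raised 23 of 38 genes and lowered 1, where 34.9% of all genes were called higher and 24.3% lower. Trametinib raised 31 and lowered 2, where 32.4% of all genes were called higher and 26.3% lower. The combination raised 30 and lowered 0, also at an unadjusted p under 0.05, where 39.6% of all genes were called higher and 23.8% lower. Median changes were 0.39 with chemotherapy, 0.66 with trametinib and 0.97 with the combination, against 0.057, 0.036 and 0.10 over all genes. Without chemotherapy replicate 1, 4 genes were called lower with chemotherapy at 24 h in place of 1. The 3 comparisons of one time share their untreated libraries.

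**Figure D1:**
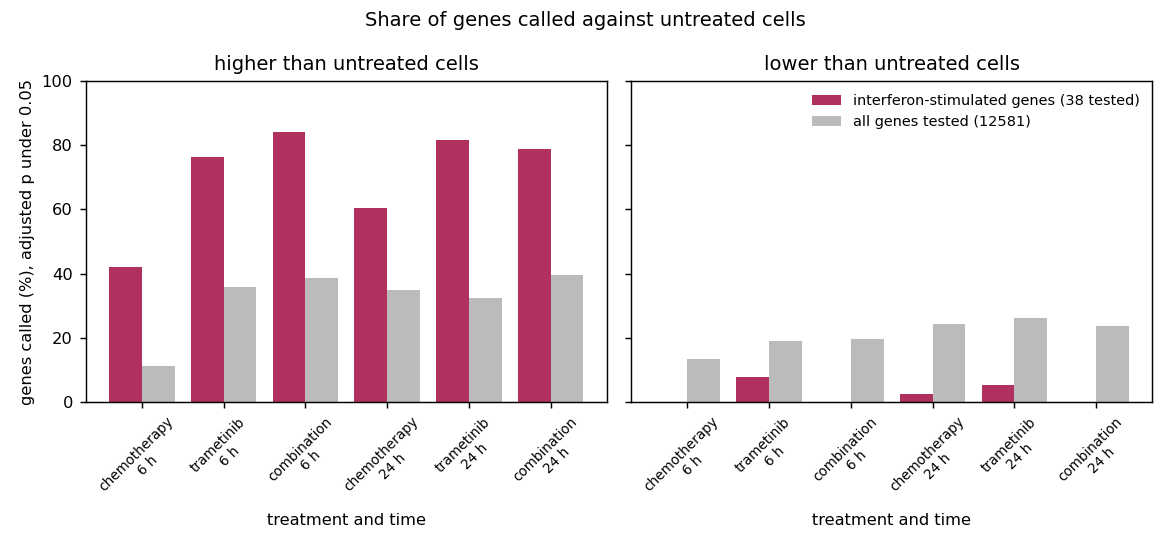
Share of the 38 tested interferon-stimulated genes (dark bars) and of all 12581 genes tested (grey bars) called higher (left) or lower (right) than untreated cells at an adjusted p under 0.05, in percent, for each treatment and time. The dark bars for higher calls run from 42.1% with chemotherapy at 6 h to 84.2% with the combination at 6 h.

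The median of all genes depended on the scaling of the libraries. Rescaling libraries by their median ratio moved the median change of all genes by -0.113 for the combination at 6 h and by -0.111 at 24 h. Among all calls, 65.5% were higher with trametinib at 6 h, 66.1% with the combination at 6 h and 62.4% with the combination at 24 h, and after rescaling 52.3%, 51.2% and 50.5%. The interferon-stimulated genes then counted 26 higher and 3 lower, 31 higher and 2 lower, and 30 higher and 3 lower in those comparisons.

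Rises were called in all 6 comparisons with untreated cells for 10 genes, namely Isg15, Herc6, Parp9, Dtx3l, Parp10, Shisa5, Igtp, Irgm1, Ifi27 and Ifi35. That is 26.3% of the 38, and 2.66% of all genes tested had this pattern. A further 12 rose in 5 (31.6%, against 8.93% of all genes), and 36 rose in at least 1 (94.7%, against 67.4%). Trim25 and Bst2 did not rise in any. Genes called higher with trametinib and with the combination at both times numbered 27 (71.1%, against 15.8% of all genes). At 6 h, 14 genes were called higher with trametinib and with the combination but not with chemotherapy (36.8%, against 23.8% of all genes). Genes called lower at least once were Bst2, Ifitm2, Ifitm3, Trim25 and Rnf213 (13.2%, against 52.2% of all genes). The comparisons behind these counts share untreated libraries. In bulk RNA, fewer cells with a transcript and less of it per cell cannot be told apart.

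**Figure D2:**
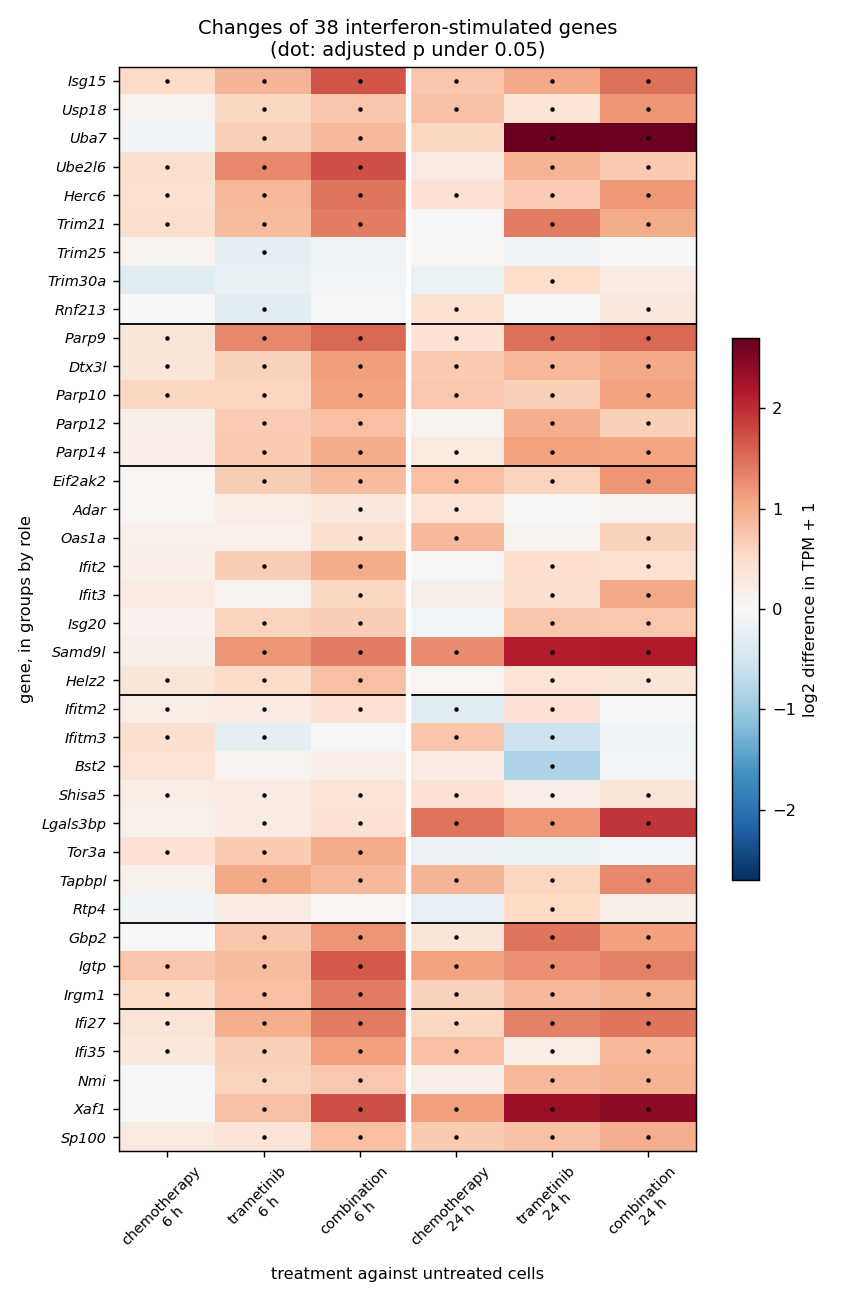
Changes against untreated cells of the same time (colour, log2 difference in TPM + 1) for the 38 genes, in groups by role, with a dot where the adjusted p is under 0.05. Blue cells with a dot are Trim25, Rnf213 and Ifitm3 with trametinib at 6 h, Ifitm2 with chemotherapy at 24 h, and Ifitm3 and Bst2 with trametinib at 24 h.

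The ISG15 system attaches the ubiquitin-like protein ISG15 to other proteins, with UBA7 as its E1 enzyme, UBE2L6 as its E2, HERC6 as the main mouse E3 ligase and USP18 as the protease that removes it. Of 9 genes of ISG15 and ubiquitin conjugation, 4 rose with chemotherapy, 6 with trametinib and 6 with the combination at 6 h, or 44.4%, 66.7% and 66.7%, where 11.3%, 35.9% and 38.6% of all genes did. At 24 h, 4, 7 and 7 rose, or 44.4%, 77.8% and 77.8%, where 34.9%, 32.4% and 39.6% of all genes did. Of these genes Usp18 was tested through treated libraries alone, so the counts only describe them. Rnf213 and Trim25, genes of ubiquitin ligases that act against infection, fell with trametinib at 6 h by changes of -0.31 and -0.23. At 24 h Rnf213 rose with chemotherapy (0.41) and with the combination (0.31).

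Isg15 (ENSMUSG00000035692.6, chr4:156199424-156200818, minus strand, GRCm38) is shown because it gives the system its name, a choice made after its values were seen. At 6 h Isg15 had 1.03, 2.4 and 1.07 TPM after chemotherapy, 2.6, 1.42 and 2.69 TPM after trametinib and 4.24, 4.94 and 4.22 TPM after the combination, against 1.05, 0.654 and 0.427 TPM in untreated cells. At 24 h Isg15 had 4.61, 4.69 and 4.6 TPM after chemotherapy, 5.47, 6.44 and 5.7 TPM after trametinib and 8.98, 8.5 and 7.88 TPM after the combination, against 2.3, 2.1 and 2.72 TPM in untreated cells. The 3 combination libraries were the highest at each time, and at 24 h no treated group overlapped untreated cells. At 6 h chemotherapy overlapped untreated cells. The changes were 0.52 with chemotherapy, 0.91 with trametinib and 1.69 with the combination at 6 h, and 0.74 with chemotherapy, 1.03 with trametinib and 1.49 with the combination at 24 h. With the combination they had SE 0.18 and adjusted p = 9.13e-08 at 6 h and 4.06e-07 at 24 h. The call with chemotherapy at 6 h (adjusted p = 0.0359) was lost without chemotherapy replicate 2, where the change was 0.28 (adjusted p = 0.234), and also without untreated replicate 2 or 3 of that time (adjusted p = 0.0953 and 0.158).

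Ube2l6 (ENSMUSG00000027078.14, chr2:84798828-84810335, plus strand) followed another order. At 6 h Ube2l6 had 14, 15.2 and 12.5 TPM after chemotherapy, 28.2, 26.7 and 23.8 TPM after trametinib and 40.0, 34.2 and 33.9 TPM after the combination, against 9.63, 9.98 and 10.5 TPM in untreated cells. At 24 h Ube2l6 had 16.5, 18.2 and 20.5 TPM after chemotherapy, 31.6, 29.1 and 30.2 TPM after trametinib and 28.7, 26 and 23.1 TPM after the combination, against 16.8, 16.6 and 13 TPM in untreated cells. The groups at 6 h did not overlap and were ordered combination, trametinib, chemotherapy and untreated. At 24 h the trametinib libraries were all above the combination libraries, although that difference, -0.22 ± 0.10 (SE, adjusted p = 0.0873), was not called. It was called after median ratio rescaling (-0.30, adjusted p = 0.0306) and without combination replicate 1 (-0.29, adjusted p = 0.0416). Against untreated cells the combination change was 1.74 ± 0.10 (SE, adjusted p = 4.45e-11) at 6 h and 0.72 ± 0.10 (SE, adjusted p = 5.5e-06) at 24 h. With chemotherapy it was 0.43 ± 0.10 (SE, adjusted p = 0.00454) at 6 h, and at 24 h the libraries overlapped and the change of 0.24 was not called (adjusted p = 0.0505).

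Uba7 (ENSMUSG00000032596.14, chr9:107975505-107984060, plus strand) had the largest rise of the 38 genes with trametinib at 24 h when all transcripts were counted. At 6 h Uba7 had 0.888, 1.97 and 1.15 TPM after chemotherapy, 3.38, 1.69 and 3.63 TPM after trametinib and 3.35, 3.04 and 4.14 TPM after the combination, against 1.13, 2.89 and 0.757 TPM in untreated cells. At 24 h Uba7 had 3.06, 3.26 and 2.63 TPM after chemotherapy, 14.2, 16 and 18.3 TPM after trametinib and 16.6, 17.2 and 14.1 TPM after the combination, against 1.6, 2.13 and 1.38 TPM in untreated cells. All trametinib and combination libraries at 24 h were far above the others, while at 6 h trametinib overlapped untreated cells. The changes at 24 h were 2.67 ± 0.24 (SE, adjusted p = 1.38e-08) with trametinib and 2.65 ± 0.24 (SE, adjusted p = 1.08e-08) with the combination, and 0.56 with chemotherapy was not called (adjusted p = 0.0513). Most of this RNA is in transcripts that the annotation does not mark as protein-coding. Protein-coding transcripts alone averaged 2.36 TPM after trametinib and 3.21 TPM after the combination, against 0.248 TPM in untreated cells at 24 h. Counting those alone, the changes at 24 h were 1.42 with trametinib and 1.75 with the combination. The trametinib change was then below that of Samd9l (2.11), whose level lay wholly in protein-coding transcripts. With protein-coding transcripts alone, the calls of Uba7 at 6 h with trametinib (0.64) and the combination (0.88) were lost at 0.20 and 0.25. The 6 h call with trametinib was also lost without untreated replicate 1 or 3 or without trametinib replicate 1 or 3, with changes of 0.40 to 0.54.

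Usp18 was called higher with trametinib and the combination at 6 h (0.55 and 0.74). At 24 h it was called higher with chemotherapy (0.79), trametinib (0.36) and the combination (1.19). Herc6 rose in all 6 comparisons, most with the combination (1.46 at 6 h and 1.18 at 24 h). Trim21, a cytosolic antibody receptor and ubiquitin ligase, rose in 5 and stood at 0.03 with chemotherapy at 24 h, where it was not called. Usp18 reached 1 TPM in 8 libraries, all of them chemotherapy libraries of 24 h or combination libraries. Its calls in those groups are therefore no evidence of a difference. Trim30a, a mouse TRIM protein gene, was called once, with trametinib at 24 h (0.47).

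Enzymes and partners of ADP-ribosylation, which transfer ADP-ribose from NAD to proteins or nucleic acids, were called in no comparison as lower than untreated cells. All 5 genes rose with trametinib and with the combination at both times, where 32.4% to 39.6% of all genes did. Among them Parp14 was tested through treated libraries alone, so the counts only describe these genes. With chemotherapy 3 rose at 6 h, where 11.3% of all genes did, and 4 at 24 h, where 34.9% did. Changes with the combination ran from 0.81 to 1.56 at 6 h and from 0.64 to 1.55 at 24 h.

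PARP9 and DTX3L form a complex in which DTX3L is the ubiquitin ligase. Parp9 (ENSMUSG00000022906.15, chr16:35938470-35972605, plus strand) had at 6 h 3.24, 3.76 and 3.34 TPM after chemotherapy, 7.3, 7.05 and 8.76 TPM after trametinib and 9.35, 9.03 and 9.89 TPM after the combination, against 2.64, 2.65 and 2.33 TPM in untreated cells. At 24 h Parp9 had 5.54, 5.87 and 5.49 TPM after chemotherapy, 13.9, 12.4 and 13.3 TPM after trametinib and 14.2, 14.9 and 12.4 TPM after the combination, against 4.87, 3.81 and 3.62 TPM in untreated cells. At both times the trametinib and combination libraries stood above all chemotherapy and untreated libraries. The change was 1.48 ± 0.09 (SE, adjusted p = 4.66e-11) with trametinib and 1.55 ± 0.09 (SE, adjusted p = 1.96e-11) with the combination at 24 h. With chemotherapy it was 0.33 ± 0.09 (SE, adjusted p = 0.0118) at 6 h, a call lost without chemotherapy replicate 2 or untreated replicate 3 (0.28 in each case, adjusted p = 0.0611 and 0.0571), and 0.39 ± 0.09 (SE, adjusted p = 0.00111) at 24 h.

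Dtx3l (ENSMUSG00000049502.17, chr16:35926511-35939151, minus strand) begins within Parp9 on the other strand. The strand setting of the quantification is not known from the sources used here, so reads from the bases where both genes lie may have been assigned to either. At 6 h Dtx3l had 3.28, 2.85 and 3.25 TPM after chemotherapy, 3.95, 4.4 and 3.83 TPM after trametinib and 6.2, 5.82 and 6.66 TPM after the combination, against 2.14, 2.4 and 2.3 TPM in untreated cells. At 24 h Dtx3l had 4.83, 4.73 and 4.64 TPM after chemotherapy, 5.61, 5.14 and 6 TPM after trametinib and 6.36, 6.49 and 5.76 TPM after the combination, against 2.43, 2.71 and 2.43 TPM in untreated cells. No treated group overlapped untreated cells at either time, and the combination was above the others at 6 h. Its changes were 0.33 with chemotherapy, 0.63 with trametinib and 1.14 with the combination at 6 h, and 0.70 with chemotherapy, 0.90 with trametinib and 1.03 with the combination at 24 h. Parp10, Parp12 and Parp14, which encode mono-ADP-ribosyltransferases, changed with the combination by 1.10, 0.81 and 1.01 at 6 h and by 1.08, 0.64 and 1.07 at 24 h. With chemotherapy Parp12 was not called at 6 h (0.17) or at 24 h (0.10).

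Of the 8 tested genes that sense RNA or act against viruses inside the cell, 1 rose with chemotherapy, 5 with trametinib and 8 with the combination at 6 h, where 11.3%, 35.9% and 38.6% of all genes rose. At 24 h 4, 6 and 7 rose, where 34.9%, 32.4% and 39.6% of all genes did. Of these genes Oas1a and Ifit3 were tested through treated libraries alone, so the counts only describe them. The share with chemotherapy at 6 h, 12.5%, was near that of all genes. Helz2, a helicase gene, was the 1 that rose with chemotherapy at 6 h (0.34). Oas1a, an oligoadenylate synthetase gene, reached 1 TPM in the 3 chemotherapy libraries of 24 h and in no other, so it was tested only because it was high there and its call in that group is no evidence of a difference. It averaged 1.24 ± 0.0462 TPM after chemotherapy, 0.308 ± 0.0962 TPM after trametinib and 0.899 ± 0.0842 TPM after the combination at 24 h, against 0.225 ± 0.0322 TPM in untreated cells (SD, n = 3). Isg20, an RNA exonuclease gene, rose at 24 h with trametinib (0.74 ± 0.16 SE, adjusted p = 0.000544) and was not called with chemotherapy (-0.06, adjusted p = 0.755). The difference between chemotherapy and trametinib in Isg20 was not tested.

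Samd9l (ENSMUSG00000047735.14, chr6:3372257-3399572, minus strand) encodes a restriction factor that blocks translation in infected cells. At 6 h Samd9l had 3.16, 2.63 and 2.93 TPM after chemotherapy, 6.24, 7.09 and 8.02 TPM after trametinib and 8.26, 7.57 and 8.79 TPM after the combination, against 2.33, 2.48 and 2.76 TPM in untreated cells. At 24 h Samd9l had 7.34, 7.8 and 6.64 TPM after chemotherapy, 14, 12.9 and 14.3 TPM after trametinib and 14.4, 14.9 and 12.6 TPM after the combination, against 2.52, 2.66 and 2.05 TPM in untreated cells. Chemotherapy overlapped untreated cells at 6 h and stood apart from them at 24 h. At 24 h trametinib and the combination overlapped each other above chemotherapy. Changes at 24 h were 1.28 ± 0.093 (SE, adjusted p = 6.91e-10) with chemotherapy, 2.11 ± 0.093 (SE, adjusted p = 3.82e-13) with trametinib and 2.14 ± 0.093 (SE, adjusted p = 2.41e-13) with the combination.

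Eif2ak2 (ENSMUSG00000024079.4, chr17:78852564-78882573, minus strand) encodes PKR, the kinase that stops translation on binding double-stranded RNA. At 6 h Eif2ak2 had 22, 17.3 and 20.3 TPM after chemotherapy, 27.1, 33.1 and 33 TPM after trametinib and 36.5, 32.1 and 38.5 TPM after the combination, against 18, 19.1 and 20.4 TPM in untreated cells. At 24 h Eif2ak2 had 38.8, 39.8 and 38 TPM after chemotherapy, 37.4, 29.4 and 33.4 TPM after trametinib and 51.5, 49.7 and 50.1 TPM after the combination, against 22.4, 22 and 20.5 TPM in untreated cells. At 6 h trametinib and the combination were above chemotherapy and untreated cells, and those 2 groups overlapped. At 24 h all treated groups were above untreated cells, with the combination highest. Changes at 24 h were 0.82 ± 0.093 (SE, adjusted p = 3.54e-07), 0.60 ± 0.093 (SE, adjusted p = 1.7e-05) and 1.19 ± 0.093 (SE, adjusted p = 1.41e-09) with chemotherapy, trametinib and the combination.

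Adar, whose enzyme edits adenosine to inosine in double-stranded RNA, rose with the combination at 6 h (0.29) and with chemotherapy at 24 h (0.35). Ifit2 and Ifit3 encode proteins that bind foreign RNA. Ifit2 rose with trametinib and the combination at 6 h (0.66 and 1.00) and at 24 h (0.46 and 0.41). Ifit3 was called higher with the combination at 6 h (0.55) and with trametinib and the combination at 24 h (0.43 and 1.03). It reached 1 TPM in 8 libraries, all of them treated, and these held every combination library. Its calls with the combination are therefore no evidence of a difference. Values of Oas1a and Ifit3 are uncertain, since 68.8% and 61.8% of the 31-base words of their transcripts also occur in other genes, mostly Oas1g and Ifit3b.

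Membrane and secreted proteins had calls in both directions. Of 8 genes, 4 rose with chemotherapy, 5 with trametinib and 5 with the combination at 6 h, while 1 fell with trametinib. Of all genes 11.3%, 35.9% and 38.6% rose in these comparisons and 18.9% fell with trametinib. At 24 h 4, 5 and 3 rose, or 50%, 62.5% and 37.5%, where 34.9%, 32.4% and 39.6% of all genes did. In the same comparisons 1 fell with chemotherapy (12.5%, against 24.3% of all genes) and 2 with trametinib (25%, against 26.3%). The shares for rises with the combination and for falls with trametinib at 24 h were near those of all genes. Of these genes Rtp4 was tested only through its trametinib libraries of 24 h, so the counts only describe them. The group holds the 2 most abundant genes of the list, Ifitm3 and Ifitm2, whose products sit in membranes and block virus entry. In untreated cells at 24 h they averaged 664 ± 14.1 and 482 ± 16.9 TPM (SD, n = 3), and no other listed gene averaged above 35 TPM there.

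Ifitm3 (ENSMUSG00000025492.6, chr7:141009586-141010770, minus strand) was singled out after its values were seen, because chemotherapy and trametinib moved it in opposite directions. At 6 h Ifitm3 had 506, 591 and 568 TPM after chemotherapy, 353, 328 and 341 TPM after trametinib and 434, 411 and 362 TPM after the combination, against 409, 417 and 399.7 TPM in untreated cells. At 24 h Ifitm3 had 1072, 1108 and 1156 TPM after chemotherapy, 454, 465 and 432 TPM after trametinib and 639, 585 and 615 TPM after the combination, against 674, 648 and 669 TPM in untreated cells. At each time all chemotherapy libraries were the highest and all trametinib libraries were below untreated cells. Chemotherapy raised it by 0.44 ± 0.063 (SE, adjusted p = 4.13e-05) at 6 h and 0.74 ± 0.063 (SE, adjusted p = 5.79e-09) at 24 h. Trametinib changed it by -0.26 ± 0.063 (SE, adjusted p = 0.00141) at 6 h and -0.56 ± 0.063 (SE, adjusted p = 2.57e-07) at 24 h. The combination was not called against untreated cells at 6 h (-0.03) or 24 h (-0.11), although at 24 h it fell after median ratio rescaling (-0.24, adjusted p = 0.0181). It differed from chemotherapy alone by -0.46 ± 0.063 (SE, adjusted p = 3.51e-06) at 6 h and -0.86 ± 0.063 (SE, adjusted p = 1.13e-09) at 24 h. Of its 31-base words 20.5% occur in other genes, and of those of Ifitm2 55.5%, so both values are uncertain. Ifitm2 fell with chemotherapy at 24 h (-0.28) and rose with trametinib (0.39), each the opposite direction from Ifitm3. Cd68 at 24 h was likewise highest with chemotherapy and lowest with trametinib, and its part in these changes was not tested.

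Bst2 (ENSMUSG00000046718.8, chr8:71534255-71537456, minus strand), the gene of tetherin, which holds budding virions at the cell surface, had the largest fall among the 38 genes. At 6 h Bst2 had 37, 28.1 and 31.1 TPM after chemotherapy, 30.3, 25.7 and 22.7 TPM after trametinib and 20.5, 31 and 34 TPM after the combination, against 24.6, 21.5 and 27.4 TPM in untreated cells. At 24 h Bst2 had 42.5, 30.2 and 35.1 TPM after chemotherapy, 17.4, 19.4 and 13.6 TPM after trametinib and 25.1, 28.4 and 33.8 TPM after the combination, against 27.1, 25.6 and 41.1 TPM in untreated cells. The trametinib libraries at 24 h lay below every other library of that time. All other groups overlapped untreated cells except chemotherapy at 6 h, whose libraries lay above them with no call (0.37, adjusted p = 0.184). The fall with trametinib at 24 h was -0.84 ± 0.20 (SE, adjusted p = 0.00118). The combination at 24 h stood above trametinib by 0.76 ± 0.20 (SE, adjusted p = 0.00345).

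Lgals3bp (ENSMUSG00000033880.11, chr11:118392751-118402092, minus strand) encodes a secreted glycoprotein that binds galectins. At 6 h Lgals3bp had 6.2, 6.8 and 5.83 TPM after chemotherapy, 6.4, 6.32 and 7.45 TPM after trametinib and 7.1, 7.9 and 8.08 TPM after the combination, against 5.43, 5.62 and 5.89 TPM in untreated cells. At 24 h Lgals3bp had 22.6, 21.3 and 23.2 TPM after chemotherapy, 18.7, 18.9 and 16.5 TPM after trametinib and 27, 31.9 and 34.4 TPM after the combination, against 7.82, 6.58 and 7.9 TPM in untreated cells. At 24 h all treated libraries were above all untreated ones, in the order combination, chemotherapy and trametinib without overlap. The changes at 24 h were 1.47 ± 0.088 (SE, adjusted p = 4.33e-11), 1.18 ± 0.088 (SE, adjusted p = 8.91e-10) and 1.93 ± 0.088 (SE, adjusted p = 4.92e-13) with chemotherapy, trametinib and the combination. At 6 h the combination rose by 0.39 ± 0.088 (SE, adjusted p = 0.000852), and the call with trametinib (0.21, adjusted p = 0.046) was lost without any of 4 single libraries, among them trametinib replicate 3 (0.15, adjusted p = 0.208).

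Tapbpl (ENSMUSG00000038213.7, chr6:125223933-125231860, minus strand) encodes TAPBPR, which edits the peptides loaded on MHC class I. At 6 h Tapbpl had 3.83, 5.04 and 3.8 TPM after chemotherapy, 7.32, 7.19 and 11.7 TPM after trametinib and 7.2, 7.54 and 8.18 TPM after the combination, against 3.19, 3.84 and 4.21 TPM in untreated cells. At 24 h Tapbpl had 8.18, 4.03 and 9.86 TPM after chemotherapy, 5.26, 5.38 and 5.31 TPM after trametinib and 9.69, 9.17 and 9.28 TPM after the combination, against 2.97, 3.1 and 3.65 TPM in untreated cells. Trametinib replicate 3 at 6 h was well above the other 2, and the chemotherapy libraries at 24 h ran widely, with replicate 2 near the untreated ones, but no treated group of 24 h overlapped untreated cells. Changes at 24 h were 0.91 ± 0.20 (SE, adjusted p = 0.000698) with chemotherapy, 0.58 ± 0.20 (SE, adjusted p = 0.0192) with trametinib and 1.30 ± 0.20 (SE, adjusted p = 1.43e-05) with the combination. The trametinib call at 24 h was lost without untreated replicate 1 (0.53, adjusted p = 0.0598) or 2 (0.56, adjusted p = 0.0503).

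Shisa5, a p53-inducible gene of the endoplasmic reticulum, rose in all 6 comparisons by 0.18 to 0.39. Tor3a, a torsin ATPase gene, rose in all 3 treatments at 6 h (0.40 with chemotherapy, 0.72 with trametinib and 0.99 with the combination) and in none at 24 h (-0.16 with chemotherapy, -0.18 with trametinib and -0.07 with the combination). After median ratio rescaling the values of Tor3a at 24 h were called lower, at -0.23, -0.22 and -0.19. Rtp4, a chaperone gene that limits flavivirus replication, reached 1 TPM in the 3 trametinib libraries of 24 h and in no other, so its call there is no evidence of a difference. It averaged 1.41 ± 0.12 TPM after trametinib at 24 h, against 0.667 ± 0.106 TPM in untreated cells (SD, n = 3).

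The interferon-inducible GTPases attack the vacuoles of intracellular pathogens. All 3 tested genes rose with trametinib and the combination at both times and with chemotherapy at 24 h, where 32.4% to 39.6% of all genes did. With chemotherapy at 6 h 2 rose, where 11.3% of all genes did. Of the 3, Gbp2 was tested through treated libraries alone, so the counts only describe these genes. Gbp2, a guanylate-binding protein gene with 12 libraries at 1 TPM, none of them untreated, was not called with chemotherapy at 6 h (-0.02) and changed by 0.74 with trametinib and 1.18 with the combination. At 24 h its changes were 0.33 with chemotherapy, 1.45 with trametinib and 1.11 with the combination.

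Igtp (ENSMUSG00000078853.8, chr11:58199556-58207591, plus strand) encodes IRGM3, a regulator of the other immunity-related GTPases. At 6 h Igtp had 1.66, 2.21 and 2.07 TPM after chemotherapy, 2, 2.15 and 2.33 TPM after trametinib and 4.47, 4.33 and 4.87 TPM after the combination, against 0.793, 0.784 and 0.699 TPM in untreated cells. At 24 h Igtp had 5.36, 5.42 and 5.69 TPM after chemotherapy, 6.18, 5.73 and 6.68 TPM after trametinib and 6.97, 7.71 and 6.05 TPM after the combination, against 2.28, 2.1 and 1.85 TPM in untreated cells. No treated group overlapped untreated cells, and at 6 h the combination was above either part. Its change with the combination was 1.66 ± 0.085 (SE, adjusted p = 6.5e-12) at 6 h and 1.36 ± 0.085 (SE, adjusted p = 5.3e-11) at 24 h. Of its 31-base words 15.9% occur in other genes, all of them in Irgm2. With a pseudocount of 0.1 in place of 1 the change with the combination at 6 h was 2.44.

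Irgm1 (ENSMUSG00000046879.7, chr11:48861968-48871683, minus strand) encodes a GTPase needed for mouse resistance to mycobacteria. At 6 h Irgm1 had 9.81, 10.4 and 10.4 TPM after chemotherapy, 12.3, 13.2 and 13.7 TPM after trametinib and 20.6, 18.2 and 20.6 TPM after the combination, against 6.5, 7.48 and 7.01 TPM in untreated cells. At 24 h Irgm1 had 12.4, 14.2 and 13.2 TPM after chemotherapy, 17, 15.2 and 16.1 TPM after trametinib and 17.6, 17.4 and 16.2 TPM after the combination, against 8.31, 8.42 and 8.15 TPM in untreated cells. Neither time had an overlap between treated and untreated libraries. The change with the combination was 1.38 ± 0.063 (SE, adjusted p = 1.58e-12) at 6 h and 0.96 ± 0.063 (SE, adjusted p = 1.19e-10) at 24 h, with 0.61 for chemotherapy and 0.88 for trametinib at 24 h.

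All 5 regulators and genes linked to cell death rose with trametinib and with the combination at both times, and with chemotherapy 2 rose at 6 h and 4 at 24 h. The shares of all genes were 32.4% to 39.6% for trametinib and the combination, and 11.3% and 34.9% for chemotherapy at 6 h and 24 h. Nmi, whose product binds STAT proteins and IFI35, was the gene not called with chemotherapy at 24 h (0.17). Ifi35 rose in all 6 comparisons, by 1.10 with the combination at 6 h. Sp100, a nuclear body gene, rose in 5 and was not called with chemotherapy at 6 h (0.27).

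Ifi27 (ENSMUSG00000064215.13, chr12:103434211-103440239, plus strand) encodes a mitochondrial and nuclear membrane protein linked to apoptosis. At 6 h Ifi27 had 17.9, 23.5 and 19.5 TPM after chemotherapy, 33.8, 30.5 and 31.2 TPM after trametinib and 39.2, 42.9 and 46.2 TPM after the combination, against 15, 15.6 and 16.2 TPM in untreated cells. At 24 h Ifi27 had 43.8, 50.2 and 47.7 TPM after chemotherapy, 79.1, 85.9 and 83.3 TPM after trametinib and 89.2, 95.9 and 80.6 TPM after the combination, against 31.8, 32.6 and 31.2 TPM in untreated cells. Chemotherapy libraries lay above untreated ones at both times, and trametinib and combination libraries above both. The changes at 24 h were 0.55 ± 0.083 (SE, adjusted p = 1.19e-05), 1.35 ± 0.083 (SE, adjusted p = 5.46e-11) and 1.44 ± 0.083 (SE, adjusted p = 1.56e-11) with chemotherapy, trametinib and the combination. At 6 h the call with chemotherapy (0.35) was lost when only protein-coding transcripts were counted (0.30, adjusted p = 0.0612), and the trametinib change then was 0.58 in place of 0.98.

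Xaf1 (ENSMUSG00000040483.15, chr11:72301629-72313733, plus strand) encodes an antagonist of the apoptosis inhibitor XIAP. At 6 h Xaf1 had 0.423, 0.658 and 0.568 TPM after chemotherapy, 1.29, 2.44 and 1.71 TPM after trametinib and 3.88, 5.14 and 4.07 TPM after the combination, against 1, 0.418 and 0.467 TPM in untreated cells. At 24 h Xaf1 had 1.63, 2.94 and 2.5 TPM after chemotherapy, 6.73, 6.42 and 7.12 TPM after trametinib and 8.34, 6.53 and 6.8 TPM after the combination, against 0.492, 0.51 and 0.626 TPM in untreated cells. At 6 h chemotherapy overlapped untreated cells and the combination was above all others. At 24 h trametinib and the combination overlapped each other and lay far above chemotherapy. The change was 1.73 ± 0.16 (SE, adjusted p = 1.88e-08) with the combination at 6 h, and at 24 h 1.10 ± 0.16 (SE, adjusted p = 7.61e-06), 2.33 ± 0.16 (SE, adjusted p = 2.67e-10) and 2.41 ± 0.16 (SE, adjusted p = 1.23e-10) with chemotherapy, trametinib and the combination.

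**Figure D3:**
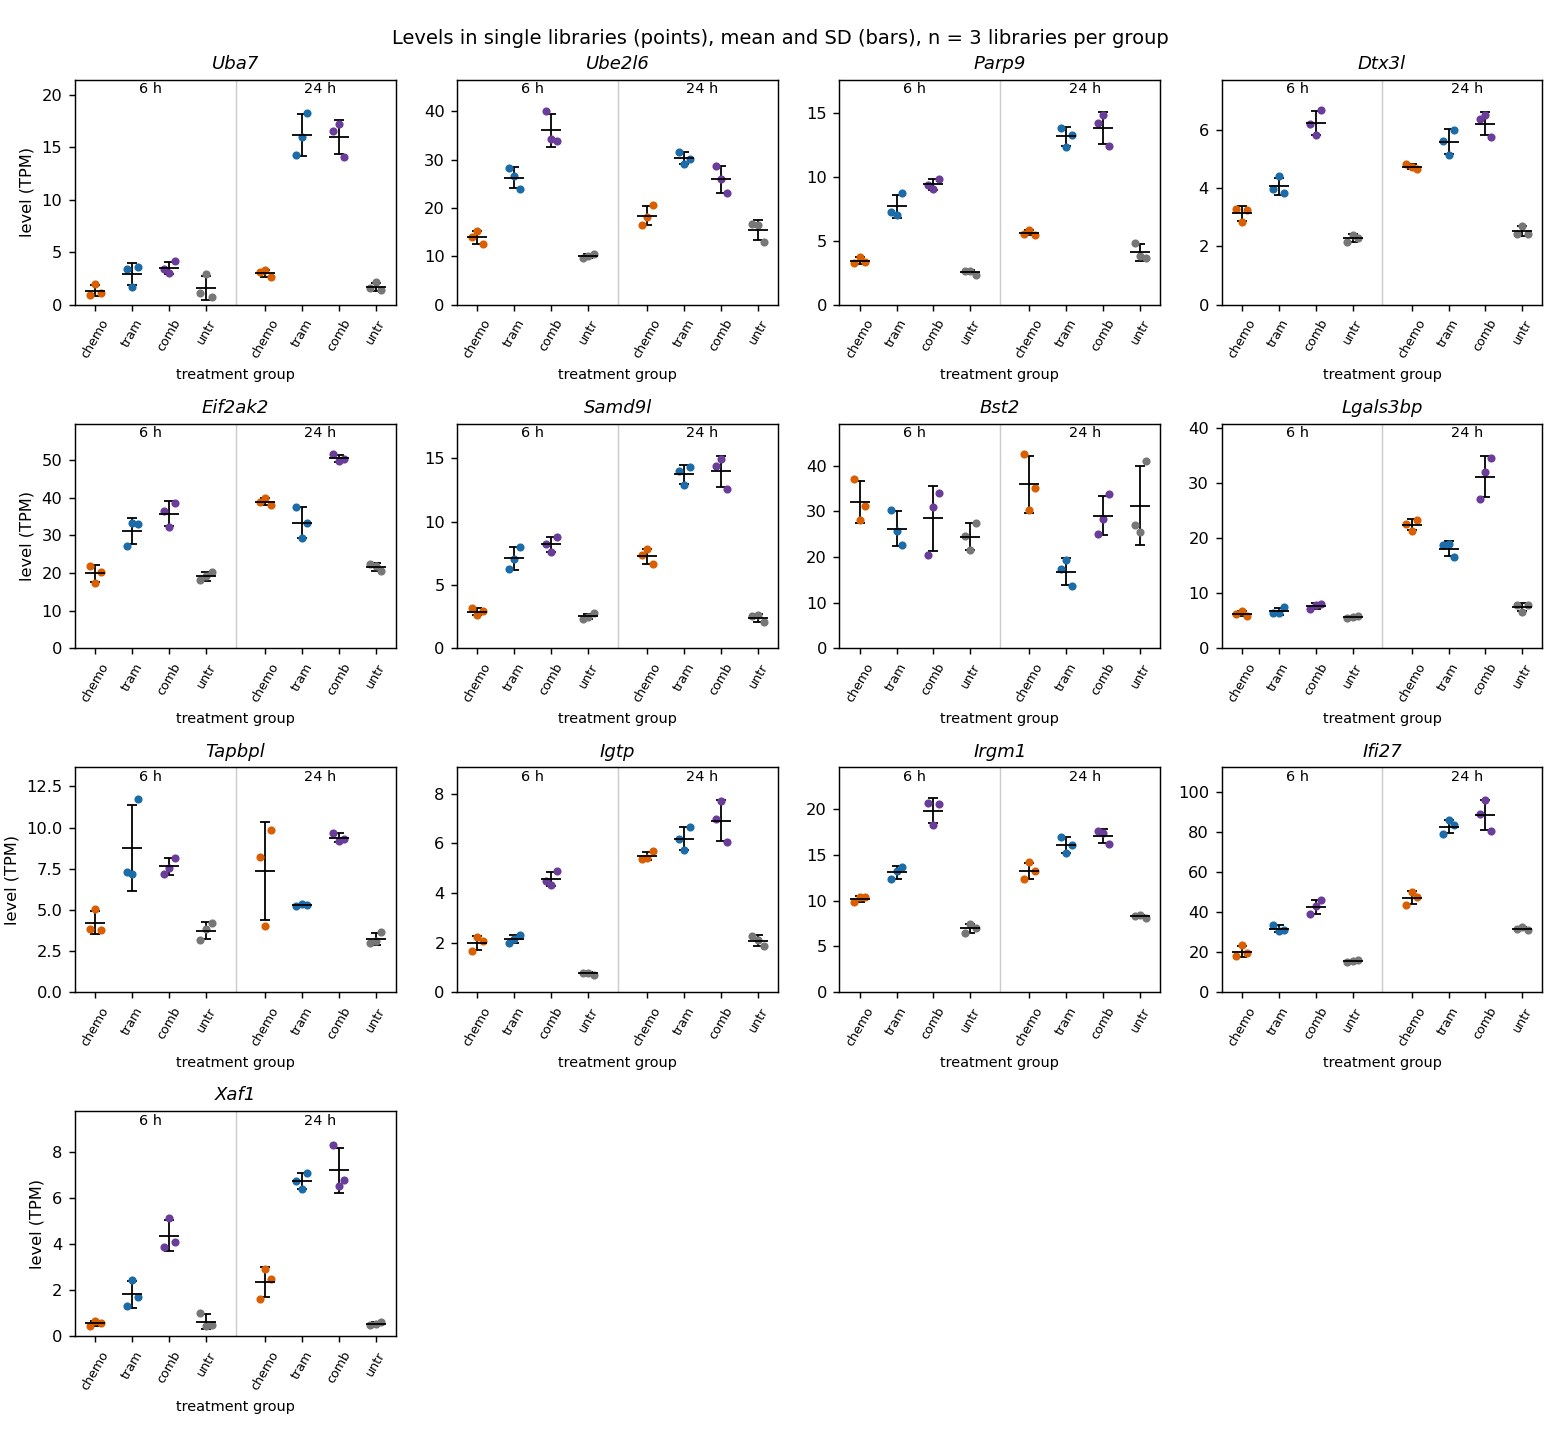
TPM in each library (points) with mean and SD (bars, n = 3) for 13 genes at 6 h and 24 h, after chemotherapy (chemo), trametinib (tram), the combination (comb) and in untreated cells (untr). Uba7 and Xaf1 are high with trametinib and the combination at 24 h, and Bst2 is lowest with trametinib at 24 h, with 13.6 to 19.4 TPM.

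Adding trametinib to chemotherapy raised most of these genes at both times. At 6 h the combination exceeded chemotherapy in 31 of 38 genes and was below it in 2, where 39.7% of all genes were called higher and 16.4% lower. Ifitm3 and Trim25 were the lower ones, and without chemotherapy replicate 1 only 1 was lower. At 24 h it exceeded chemotherapy in 27 and was below it in 3, where 30.3% of all genes were called higher and 23.2% lower. The lower ones were Ifitm3, Adar (-0.24) and Oas1a (-0.24), the last tested only through its chemotherapy libraries, and without combination replicate 3 only 1 was lower. Median differences were 0.69 at 6 h and 0.39 at 24 h, against 0.13 and 0.031 over all genes. Rescaling moved the median of all genes by -0.128 in the 6 h comparison, where higher calls were 70.8% of all calls and 51.2% after rescaling.

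Adding chemotherapy to trametinib changed fewer. At 6 h the combination exceeded trametinib in 24 genes and was below it in 0, also at an unadjusted p under 0.05, where 12.3% of all genes were called higher and 6.53% lower. Fitting the compared groups by themselves left 11 higher. At 24 h the combination exceeded trametinib in 14 (36.8%) and was below it in 5 (13.2%), where 31.4% of all genes were called higher and 18% lower. The share of rises was near that of all genes, and the median difference was 0.087, against 0.064 over all genes. Lgals3bp (0.75 ± 0.088 SE, adjusted p = 9e-07) and Ifi35 (0.70 ± 0.071 SE, adjusted p = 1.4e-07) were among the higher. Usp18 (0.83 ± 0.12 SE) was also higher. It was tested only through chemotherapy and combination libraries, so its call here is no evidence of a difference. The lower ones were Ifitm2 (-0.42), Trim21 (-0.40), Rtp4 (-0.37), Parp12 (-0.34) and Gbp2 (-0.34), of which Rtp4 was tested only through its trametinib libraries. Among all calls, higher ones made up 65.4% at 6 h and 63.6% at 24 h, and after rescaling 52.7% and 51%.

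The combination was also set against the sum of the changes with chemotherapy and with trametinib on the log2 scale. At 6 h 0 of 38 genes departed from the sum, with 3 above and 1 below it at an unadjusted p under 0.05, where 0.0874% of all genes were called above the sum and 0.00795% below. Without trametinib replicate 2, Xaf1 was called above it (1.16, adjusted p = 0.0345, against 1.00 and 0.0838 with all libraries). At 24 h 16 genes lay below the sum and 0 above, with 2 above at an unadjusted p under 0.05, where 15.6% of all genes were called below and 16.2% above. The median departure of the 38 genes was -0.28, against 0.0005 over all genes.

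Samd9l was farthest below the sum, at -1.26 ± 0.13 (SE, adjusted p = 7.9e-07). Its combination change of 2.14 was close to that with trametinib alone, 2.11, although chemotherapy alone gave 1.28. Xaf1 (-1.02 ± 0.23 SE, adjusted p = 0.00179), Igtp (-0.94 ± 0.12 SE, adjusted p = 7.92e-06), Lgals3bp (-0.72 ± 0.12 SE, adjusted p = 0.000189) and Gbp2 (-0.67 ± 0.19 SE, adjusted p = 0.0109) followed. Genes nearer the sum were Usp18 (0.04, adjusted p = 0.895) and Herc6 (0.11, adjusted p = 0.529). Tor3a was called above the sum without chemotherapy replicate 1 (0.36, adjusted p = 0.011) or trametinib replicate 3 (0.31, adjusted p = 0.0497), against 0.26 with all libraries (adjusted p = 0.0736).

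**Figure D4:**
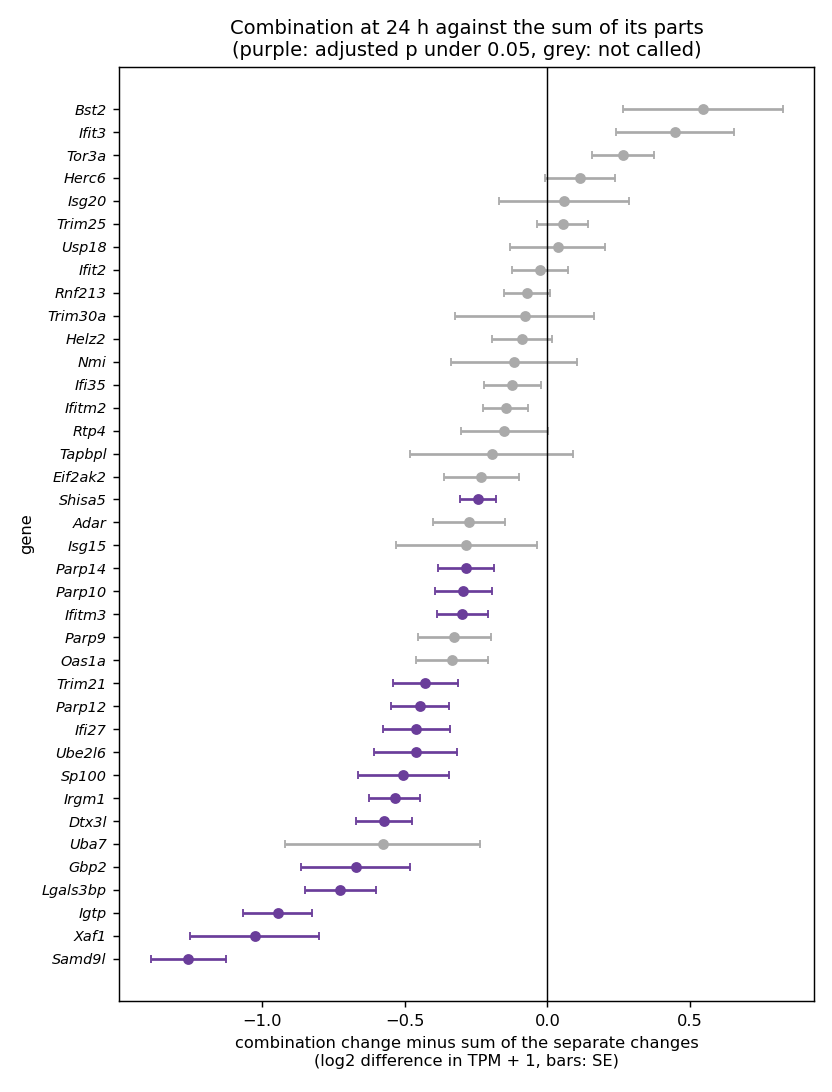
Change with the combination minus the sum of the changes with chemotherapy and with trametinib at 24 h (log2 difference in TPM + 1, bars are SE) for the 38 genes. The 16 called genes (purple) all lie to the left of 0, from -0.24 in Shisa5 to -1.26 in Samd9l.

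Untreated cells also changed with time in culture. At 24 h, 19 of 38 genes were higher than at 6 h and 0 lower, also at an unadjusted p under 0.05, where 29.4% of all genes were called higher and 31.4% lower. The changes were largest in Isg15 (0.99 ± 0.18 SE, adjusted p = 6.95e-05), Ifi27 (0.98 ± 0.083 SE, adjusted p = 6.89e-09), Tor3a (0.83 ± 0.078 SE, adjusted p = 2.71e-08) and Igtp (0.81 ± 0.085 SE, adjusted p = 1.28e-07). Untreated levels of Samd9l (-0.05), Xaf1 (-0.06) and Uba7 (0.14) were not called. The median was 0.26, against -0.014 over all genes.

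The effect of each treatment at 24 h was then set against its effect at 6 h. For chemotherapy 14 genes had a more positive change at 24 h than at 6 h and 4 a more negative one, where 28.3% of all genes were called higher and 16.7% lower. After rescaling those counts were 9 and 6, and higher calls among all calls were 51.3% in place of 62.9%. For trametinib 14 were higher and 4 lower, where 15.9% of all genes were called higher and 22.3% lower. For the combination 7 were higher (18.4%) and 8 lower (21.1%), where 25.3% of all genes were called higher and 24.3% lower. Neither share for the combination exceeded that of all genes. Lgals3bp had a higher change at 24 h in all 3 treatments (1.35, 0.96 and 1.54 for chemotherapy, trametinib and the combination), and so had Samd9l (1.13, 0.92 and 0.75) and Xaf1 (1.16, 1.54 and 0.68). Tor3a had a lower change in all 3 (-0.55, -0.90 and -1.07).

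Genes upstream of the response were read from further lists. None of 12 interferon genes reached 1 TPM in any library. Ifnb1, the gene of interferon beta, did not pass 0.180 TPM, and Ifng, Ifnl2, Ifnl3, Ifna4 and Ifna9 were listed at 0 in all 24 libraries. Of 9 receptor and kinase genes 8 were tested. At 6 h 2 rose with chemotherapy, 5 with trametinib and 6 with the combination, or 25%, 62.5% and 75%, where 11.3%, 35.9% and 38.6% of all genes did. In each 1 gene fell (12.5%), where 13.5%, 18.9% and 19.8% of all genes did. At 24 h 2, 4 and 5 rose, or 25%, 50% and 62.5%, where 34.9%, 32.4% and 39.6% of all genes did, so that the share with chemotherapy was below that of all genes. In those comparisons 1, 2 and 0 fell, where 24.3%, 26.3% and 23.8% of all genes did. Ifnar1, of the type I receptor, rose with trametinib (0.42 ± 0.056 SE, adjusted p = 3.31e-06 at 6 h and 0.25 ± 0.056 SE, adjusted p = 0.000787 at 24 h) and was not called with chemotherapy (-0.01 and -0.08). Jak1 rose with trametinib by 0.73 ± 0.068 (SE, adjusted p = 3.2e-08) at 6 h and 1.03 ± 0.068 (SE, adjusted p = 1.61e-10) at 24 h, and with chemotherapy it stood at -0.20 (lower, adjusted p = 0.0359) and 0.01 (not called).

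Of 9 transcription factor genes, 2 rose with chemotherapy, 4 with trametinib and 6 with the combination at 6 h, and 0 fell. These are 22.2%, 44.4% and 66.7%, where 11.3%, 35.9% and 38.6% of all genes rose. At 24 h 7, 5 and 6 rose, while 0, 2 and 1 fell. Rises were then 77.8%, 55.6% and 66.7%, where 34.9%, 32.4% and 39.6% of all genes rose. Falls were 22.2% with trametinib and 11.1% with the combination, where 26.3% and 23.8% of all genes fell. Of these genes Irf8 reached 1 TPM in the 3 chemotherapy libraries of 24 h and in no other. It was tested only because it was high there, so the counts only describe these genes. Irf1 rose in all 6 comparisons. At 6 h Irf1 had 16.6, 15.3 and 16.1 TPM after chemotherapy, 25.4, 23.8 and 26.4 TPM after trametinib and 30.5, 29.2 and 31.6 TPM after the combination, against 10.3, 9.44 and 8.8 TPM in untreated cells. At 24 h Irf1 had 25, 26.4 and 25.9 TPM after chemotherapy, 31.5, 29.2 and 33.2 TPM after trametinib and 45.9, 46.9 and 41.8 TPM after the combination, against 10.4, 10.8 and 9.85 TPM in untreated cells. The 4 groups of each time did not overlap, and their order was combination, trametinib, chemotherapy and untreated. The combination changes were 1.58 ± 0.062 (SE, adjusted p = 1.83e-13) and 2.02 ± 0.062 (SE, adjusted p = 2.12e-15).

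Stat2 had at 6 h 2.49, 3.17 and 3.04 TPM after chemotherapy, 6.98, 6.27 and 7.6 TPM after trametinib and 6.87, 7.23 and 9.06 TPM after the combination, against 2.29, 2.43 and 1.98 TPM in untreated cells. At 24 h Stat2 had 3.91, 4.13 and 4.37 TPM after chemotherapy, 9.99, 8.43 and 9.33 TPM after trametinib and 7.32, 7.78 and 6.38 TPM after the combination, against 3.93, 4.12 and 3.84 TPM in untreated cells. It rose with trametinib (1.30 ± 0.098 SE, adjusted p = 1.86e-09 and 1.04 ± 0.098 SE, adjusted p = 2.39e-08 at 6 h and 24 h) and was not called with chemotherapy (0.27 and 0.05). Irf9 changed by 0.34, 0.13 (not called) and 0.34 at 6 h, and 0.68, 0.79 and 0.99 at 24 h, for chemotherapy, trametinib and the combination. In untreated cells Irf9 fell with time, to 3.42 ± 0.21 TPM at 24 h, against 7.96 ± 0.464 TPM at 6 h (SD, n = 3). Irf7, the master regulator of interferon alpha genes, rose with the combination (1.52 and 1.20) and with trametinib (0.70 and 1.29), with no library above 4.01 TPM.

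**Figure D5:**
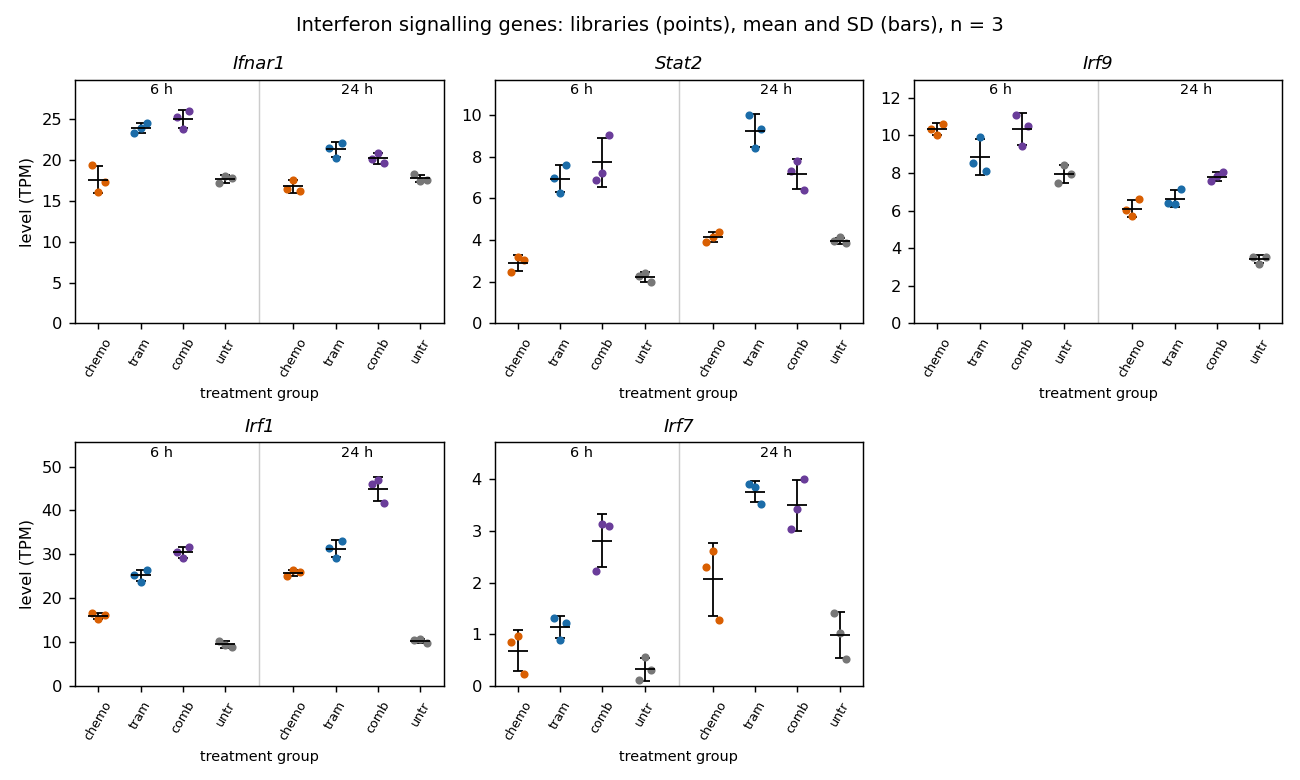
TPM in each library (points) with mean and SD (bars, n = 3) for the receptor gene Ifnar1 and 4 transcription factor genes, after chemotherapy (chemo), trametinib (tram), the combination (comb) and in untreated cells (untr). Irf1 is lowest in untreated cells at both times and highest with the combination at 24 h, at 44.9 ± 2.74 TPM.

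Of 5 tested feedback inhibitor genes, 1 rose (20%) and 2 fell (40%) with each treatment at 6 h. Of all genes 11.3%, 35.9% and 38.6% rose and 13.5%, 18.9% and 19.8% fell with chemotherapy, trametinib and the combination, so rises with the last 2 were below the share of all genes. At 24 h 3 rose with chemotherapy, 3 with trametinib and 4 with the combination (60%, 60% and 80%), where 34.9%, 32.4% and 39.6% of all genes did. With chemotherapy 1 fell (20%, against 24.3% of all genes), and 0 fell in the others. Socs1, which blocks JAK kinases and is named here after its values were seen, was not called in any of the 6 comparisons (-0.30 to 0.24). Of 9 genes of nucleic acid sensors and their adaptors 5 were tested, and Cgas, the cytosolic DNA sensor, stayed at or below 0.209 TPM. At 6 h 3, 2 and 4 rose with chemotherapy, trametinib and the combination (60%, 40% and 80%), where 11.3%, 35.9% and 38.6% of all genes did. At 24 h 2, 2 and 4 rose (40%, 40% and 80%), where 34.9%, 32.4% and 39.6% of all genes did, and 1 fell in each (20%), where 24.3%, 26.3% and 23.8% did. The shares that rose with trametinib at both times and with chemotherapy at 24 h, and those that fell, were near the shares of all genes. Of the 5 sensor genes, Tlr3 was tested through treated libraries alone, so the sensor counts only describe these genes. Ddx58, the gene of the RNA sensor RIG-I, rose most with the combination (1.28 ± 0.11 SE, adjusted p = 5.04e-09 and 0.80 ± 0.11 SE, adjusted p = 2.09e-06). Tmem173, the gene of STING, rose most with chemotherapy at 24 h (0.91 ± 0.05 SE, adjusted p = 1.25e-11) and was not called with trametinib (0.08).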

How the data were processed

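RNA of LLC1 cells was measured in 24 libraries (8 groups of 3, grouped by the treatment and time in their titles). The deposited values are TPM per transcript. Per the submitters' processing notes, the authors used bcl2fastq 2.17.1.14 and kallisto 0.45 with GRCm38, and the version of the transcript set and the strand setting are not given in the sources used here. TPM of 79662 of 82934 transcripts were summed to 28328 genes through GENCODE M21. The 3272 unmatched transcripts held 4.45% to 5.98% of the TPM.

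Genes with at least 1 TPM in 3 libraries (12581) were fitted as log2(TPM + 1) with limma 3.58.1 (trend on level, R 4.3.3), the 8 group means sharing 1 estimate of spread, in 16 comparisons. Tests were two-sided, with Benjamini-Hochberg adjustment over all 12581 genes and a call under 0.05. A fold change on this scale understates the change of low genes. The fit was tried on data simulated with independent normal noise from the group means and spreads of these libraries. Of 50 genes changed 1.25-fold, 29 were called in the right direction. Of 50 changed 1.5-fold, 2-fold or 4-fold, 48, 49 and 48 were. False calls numbered 13 among 12581 genes. Whether the noise of real libraries is of this kind was not tested. Tables were prepared with Python 3.11.15, pandas 2.3.3 and numpy 2.4.6. Promoter sequences came from RefSeq (GRCm38.p6) and coordinates of genes from GENCODE M21 (GRCm38).

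Named genes followed a rule: in each role group, the 2 members with the largest absolute change in a comparison of a treatment with untreated cells, called there and reaching 5 TPM in the higher group, were given library by library, and so was the largest fall. Isg15 and Ifitm3 were added after their values were seen. Pathway genes named were the central signalling genes and up to 3 of smallest p per list and comparison, with 1 item not reported here. Promoters were printed for up to 6 of these members, those with the response element core first, and for Isg15. The members and lists were chosen with earlier results of these data known. Alternatives were a pseudocount of 0.1, no filter on low values, median ratio rescaling, protein-coding transcripts alone, only the groups compared, a replicate block, Bonferroni adjustment at 0.10 and leaving out each library. Count models were not used, since TPM are not counts and their depth is unknown.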

Additional observations from a re-analysis of the deposited data

Results flagged for a closer look

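The effect of a treatment at 24 h differed from its effect at 6 h, by a test of the difference itself, in 18 of 38 genes for chemotherapy, 18 for trametinib and 15 for the combination. More positive effects at 24 h were 36.8%, 36.8% and 18.4% of the 38, where 28.3%, 15.9% and 25.3% of all genes were called so. More negative ones were 10.5%, 10.5% and 21.1%, where 16.7%, 22.3% and 24.3% of all genes were called so. Among the genes given library by library, the difference in the chemotherapy effect (24 h minus 6 h, log2) was 1.35 in Lgals3bp, 1.16 in Xaf1, 1.13 in Samd9l, 0.78 in Tapbpl and in Eif2ak2, 0.37 in Dtx3l and 0.32 in Igtp. The difference in the trametinib effect was 2.03 in Uba7, 1.54 in Xaf1, 0.96 in Lgals3bp, 0.92 in Samd9l, 0.38 in Igtp, 0.37 in Ifi27 and 0.28 in Dtx3l. Bst2 ran the other way, with -0.93.

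For the combination effect the difference was 1.78 in Uba7, 1.54 in Lgals3bp, 0.75 in Samd9l, 0.68 in Xaf1 and 0.33 in Eif2ak2. It was -1.03 in Ube2l6, -0.42 in Irgm1 and -0.30 in Igtp, whose untreated levels at 24 h were above those at 6 h by 0.57, 0.22 and 0.81. For Igtp, which was under 1 TPM in untreated cells at 6 h, a pseudocount of 0.1 gave a difference of 0.10 for chemotherapy and 0.14 for trametinib, neither called.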

How the results depend on the processing

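No call of a listed gene changed direction under any alternative. The listed genes had 359 called values, pathway genes not counted. Of these, 18 lost their call with a pseudocount of 0.1 and 18 with no filter. Median ratio rescaling ended 24, and fitting only the groups compared ended 34. Protein-coding transcripts alone ended 10 of 357, Bonferroni adjustment at 0.10 ended 187 of 359, and leaving out a library ended 198 of 2556. Of 336 mean levels, 289 moved by less than 1 SD after rescaling.

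Under Bonferroni adjustment against untreated cells, chemotherapy at 6 h kept 4 higher calls, trametinib 17 higher and 0 lower at 6 h and 20 higher and 1 lower at 24 h, and chemotherapy 0 lower at 24 h. The combination kept 20 higher and 1 lower against chemotherapy at 6 h, 10 and 1 at 24 h, 7 higher against trametinib at 6 h and 6 higher and 1 lower at 24 h. Departures below the sum at 24 h were 2. Between times, higher and lower effects were 2 and 0 for chemotherapy, 3 and 1 for trametinib and 1 and 3 for the combination, and untreated cells kept 7. The pathway lists kept 88 of 172 calls. These counts are lower because the limit is stricter.

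After rescaling, genes called lower numbered 2 for the combination at 6 h, 3 for chemotherapy, 4 for trametinib and 3 for the combination at 24 h, and 5 for the combination against chemotherapy at 24 h, and 9 chemotherapy effects were higher at 24 h. With only the groups compared, the combination at 6 h was above trametinib in 11 genes and below chemotherapy in 1. With a pseudocount of 0.1, 9 trametinib effects and 4 combination effects were higher at 24 h. The cause was not tested.

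Leaving out 1 library at a time, genes called lower ranged from 1 to 2 for the combination against chemotherapy at 6 h and at 24 h, and from 1 to 4 for chemotherapy at 24 h. Departures above the sum ranged from 0 to 1 at 6 h and at 24 h. The combination at 6 h was above trametinib in 17 to 21 genes, against 24 with all libraries.

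Libraries with the same replicate number deviated together in 10 of 36 pairs (r over 0.1, median -0.029, highest 0.335). The median for different numbers was -0.016. Such correlations cannot tell whether same-numbered libraries share more than a number. With a replicate block 345 of 359 calls stayed and 14 were lost, with 15, 27 and 32 genes higher for chemotherapy, trametinib and the combination at 6 h and 22, 31 and 30 at 24 h, and 167 pathway calls. TPM hold no depth, so how far low genes such as Isg15, Igtp and Xaf1 are limited by counting is unknown. With a pseudocount of 0.1 the combination changes at 6 h were 2.57 in Isg15 and 2.69 in Xaf1.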

Other observations

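A further 45 interferon-stimulated genes outside the list were read, and 16 of them were tested. Of these 16, 9 had no untreated library at 1 TPM and entered the test through treated libraries alone, so the counts only describe them. At 6 h 2 rose with chemotherapy, 10 with trametinib and 14 with the combination (12.5%, 62.5% and 87.5%), where 11.3%, 35.9% and 38.6% of all genes did. At 24 h 13, 13 and 15 rose (81.2%, 81.2% and 93.8%), where 34.9%, 32.4% and 39.6% of all genes did. With trametinib 1 fell at each time (6.25%), where 18.9% and 26.3% of all genes did. Ifi204, of the DNA-binding HIN-200 family, averaged 12.7 ± 1.35 TPM after chemotherapy, 39 ± 4.92 TPM after trametinib and 33.8 ± 2.11 TPM after the combination at 24 h, against 6.25 ± 0.686 TPM in untreated cells (SD, n = 3). The change was 2.46 ± 0.12 (SE, adjusted p = 1.21e-12) with trametinib. Its relatives Ifi203 and Mndal changed with the combination by 2.26 and 2.06 at 24 h. Mndal reached 1 TPM in 9 libraries, all of them treated for 24 h.

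Cxcl10, which encodes a chemokine that attracts T cells, averaged 2.85 ± 0.367 TPM after chemotherapy, 0.612 ± 0.123 TPM after trametinib and 11.2 ± 1.65 TPM after the combination at 24 h, against 0.414 ± 0.0367 TPM in untreated cells (SD, n = 3). It reached 1 TPM in the 3 chemotherapy and 3 combination libraries of 24 h and in no other, so its calls there are no evidence of a difference. The change with trametinib, 0.19, was not called. Classical members of the response stayed below the limit for testing, with highest values of 0.329 TPM in Ifit1, 0.297 TPM in Rsad2 and 0.634 TPM in Mx1.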
